A study of Mus musculus with 12 samples.

Results

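A set of 9 genes of insulin and insulin-like growth factor (IGF) signaling was followed in the mouse prefrontal cortex (PFC) after repeated cocaine. They were chosen by name, as the ligand Igf1, the receptors Insr and Igf1r, the adaptors Irs1 and Irs2, the kinases Akt1 and Akt2, and the transcription factors Foxo1 and Foxo3. The 9 genes stand among 39929 gene names in the deposited tables, and all 9 passed the filter on low values at each time point, where 17567, 17932 and 17778 names passed at 2 h, 24 h and 7 d. RNA with a poly(A) tail was sequenced from the PFC of male C57BL/6 mice (C57BL/6 J in the methods) listed as 10 weeks of age. Whether that was the age at the first injection or at tissue collection is not stated. The mice received daily intraperitoneal injections of saline (the control) or cocaine, and tissue was taken at 2 h, 24 h or 7 d from the final dose. There were 6 groups of 10 mice (60 in all), and the tissue of 5 mice was combined in each of the 2 libraries that a group had, 12 libraries in total.

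The deposited values set a limit on every comparison. Each table gives 1 FPKM (fragments divided by transcript length in kilobases and by the mapped total) per group, pooled by the authors over both libraries, so no spread between replicates, no test and no sequencing depth are given here. The tables also hold the authors' own test of each locus, which was not used. Differences are given as log2 ratios of cocaine over saline after 0.1 FPKM was added to each, and a gene was counted as higher or lower where the ratio passed 1.2-fold (0.26 on the log2 scale). The share of all genes past the same fold is printed as the background. In bulk tissue, a change in the number of cells of a type and a change in RNA per cell cannot be told apart.

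Insulin and IGF-1 bind receptor tyrosine kinases at the cell surface, which phosphorylate the insulin receptor substrates Irs1 and Irs2. These adaptors recruit phosphoinositide 3-kinase, the lipid it makes brings Akt kinases to the membrane, and active Akt phosphorylates FOXO transcription factors, which then leave the nucleus. In neurons the pathway is known for its part in growth, survival and synaptic plasticity, and transcription of Irs2 and Insr is itself known to be raised by FOXO factors when signaling is low.

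Irs2 had the widest difference of the 9 genes at 2 h and 24 h. Its locus lies at chr8:10984703-11054541 (GRCm38, the whole gene with its exons and introns). Irs2 was listed at 5.3 FPKM in saline and 12.4 FPKM in cocaine at 2 h, at 4.59 and 6.29 FPKM at 24 h, and at 3.63 and 4.67 FPKM at 7 d. The log2 ratio was 1.21 (2.31-fold) at 2 h, then 0.45 (1.36-fold) and 0.36 (1.28-fold) at 24 h and 7 d, so cocaine was above saline by more than 1.2-fold at every time point. Of all genes, 1.39%, 5.33% and 7.81% had a ratio at least as high at 2 h, 24 h and 7 d. Among genes within 2-fold of its level, the shares were 0.844%, 1.93% and 4.52%. Irs2 was the member past the fold in the higher direction at all 3 time points, which held for 0.688% of the 16564 genes measured at all of them. The cocaine value at 2 h stood above the other 5 pooled values, while the cocaine value at 7 d lay below the saline value at 2 h. Each table was normalized separately, which bears on every level set across time points here.

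Irs1, the other adaptor, was the lowest of the 9 genes. Its locus is chr1:82233101-82291416 at 2 h and 24 h, and at 7 d it runs to 82445715 and also takes in Rhbdd1. Irs1 was listed at 0.402 FPKM in saline and 0.512 FPKM in cocaine at 2 h, at 0.481 and 0.464 FPKM at 24 h, and at 0.274 and 0.533 FPKM at 7 d. The log2 ratios were 0.28, -0.04 and 0.76 in the order of time, and the 7 d ratio was the highest of the 9 genes at that time. The saline value at 7 d was the lowest of the 6 pooled values, whereas the cocaine values stayed between 0.464 and 0.533 FPKM. At such a level the ratio follows the constant added before the log2: at 7 d it was 0.96 with none and 0.27 with 1 FPKM. Of genes within 2-fold of its level, 6.02% had a ratio at least as high at 7 d.

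The Irs1 values share their exons with an antisense gene. Gm9747 is annotated on the other strand, and all of its 2822 exon bases lie within exons of Irs1, of which they make up 30.9% (Gencode vM1, NCBIM37). The library kit does not keep strand, so reads of the 2 genes cannot be told apart in the shared bases. Gm9747 was listed at 2.74 and 3.25 FPKM (saline, cocaine) at 2 h, 2.67 and 3.16 FPKM at 24 h, and 2.9 and 3.01 FPKM at 7 d, above Irs1 in each group. The sum of both genes was 3.14 and 3.76 FPKM at 2 h, 3.15 and 3.62 FPKM at 24 h, and 3.17 and 3.54 FPKM at 7 d. The log2 ratio of the summed FPKM was 0.25, 0.19 and 0.16, under the fold at each time point. FPKM are per length, and the exons of Irs1 span 9144 bases against 2822 for Gm9747. The summed FPKM thus give Gm9747 more weight than its reads would have. They do not measure the reads of both genes together, and whether those reads passed the fold was not calculated. Irs2 also overlaps an antisense gene, 9530052E02Rik, but over 162 bases, 4.03% of the annotated Irs2 exons, and that gene was listed between 0.0317 and 0.235 FPKM.

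The sequences before the transcription starts of Irs1 and Irs2 are shown because the 2 adaptors shared there a motif that the other members with a window lacked. The windows are the 250 bases upstream of the RefSeq start (GRCm38.p6), chr1:82291440-82291689 for Irs1 and chr8:11008930-11009179 for Irs2, both on the minus strand. They are written 5′ to 3′ with the E-box CACGTG in capitals.
Irs1: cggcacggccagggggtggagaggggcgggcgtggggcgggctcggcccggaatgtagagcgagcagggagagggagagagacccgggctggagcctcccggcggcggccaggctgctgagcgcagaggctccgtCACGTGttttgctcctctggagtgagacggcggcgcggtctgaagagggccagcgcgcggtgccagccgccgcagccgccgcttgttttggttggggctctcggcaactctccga
Irs2: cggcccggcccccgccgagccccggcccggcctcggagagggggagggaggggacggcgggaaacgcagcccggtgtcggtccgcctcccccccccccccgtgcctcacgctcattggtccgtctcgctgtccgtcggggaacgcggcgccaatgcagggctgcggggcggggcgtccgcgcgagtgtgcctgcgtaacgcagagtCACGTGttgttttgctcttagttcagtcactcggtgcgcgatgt
The E-box begins 115 bases before the start of Irs1 and 44 bases before that of Irs2. It was found in 6.02% of 32851 windows of the same length, and in 2 of the 8 members that have a window (12 windows in all). The cAMP response element TGACGTCA was in no member's window and in 1.55% of all windows. The FOXO motif TGTTTAC, searched on both strands as the others were, was in 1 member, Akt1, and in 3.17% of all windows. Only these exact letters were searched, so a window without them is not shown to lack other forms of FOXO site. The near-match TGTTTTG, not counted here, can be read in both printed windows. The E-box and the cAMP response element read the same on both strands. A match describes the letters of a window and says nothing of binding.

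**Figure D1:**
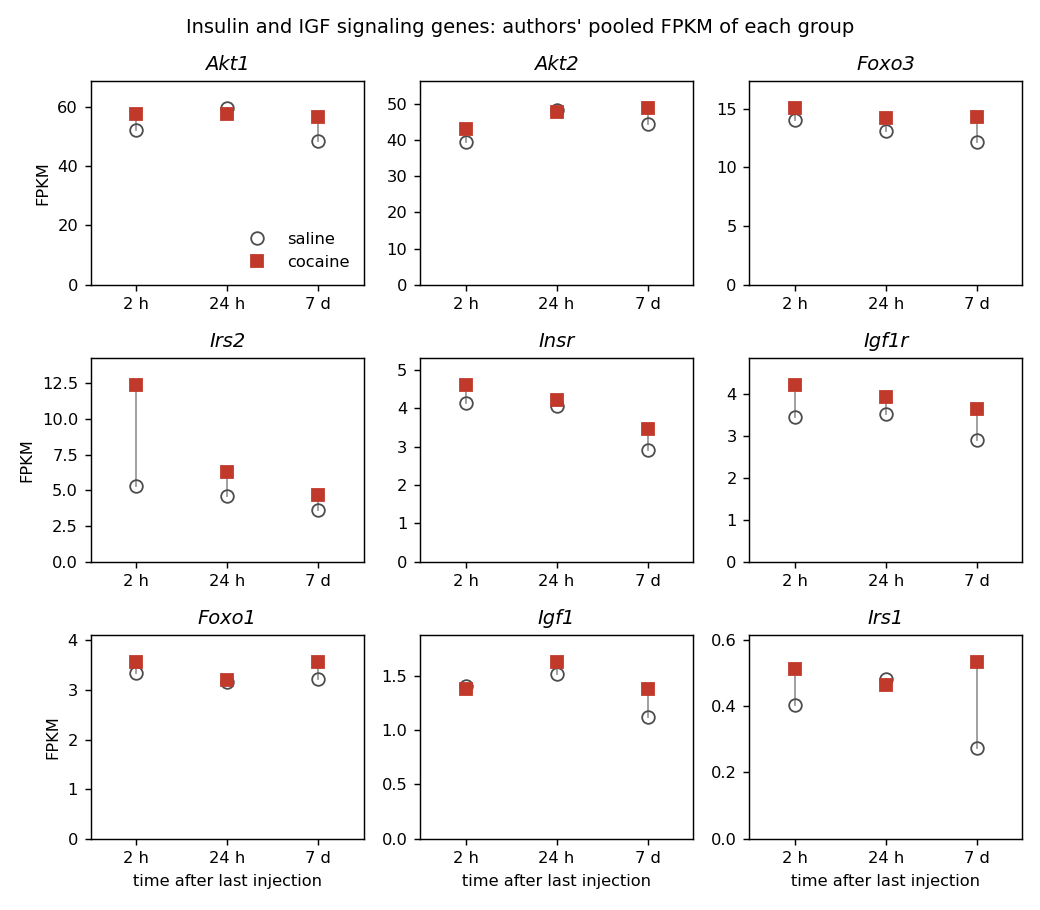
Pooled FPKM of the 9 genes in saline and cocaine at 2 h, 24 h and 7 d (1 value per group, no error available; 1 panel per gene, each with its own axis in FPKM). Irs2 in cocaine stands at 12.4 FPKM at 2 h against 5.3 in saline, and for 7 of the 9 genes the lowest saline value is that of 7 d.

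The ratios of both receptors were under that of Irs2 at each time point. Igf1r, the receptor of IGF-1 (chr7:67951914-68233665), was listed at 3.45 FPKM in saline and 4.22 FPKM in cocaine at 2 h, at 3.52 and 3.93 FPKM at 24 h, and at 2.9 and 3.65 FPKM at 7 d. Its log2 ratio was 0.28 at 2 h and 0.32 at 7 d, both past the fold, and 0.16 at 24 h. Every cocaine value of Igf1r lay above every saline value. This held for 2 of the 9 genes, Igf1r and Foxo3, and for 3.6% of all genes measured at the 3 time points. Insr, the insulin receptor (chr8:3150780-3279617), was listed at 4.13 and 4.62 FPKM at 2 h, 4.06 and 4.22 FPKM at 24 h, and 2.92 and 3.47 FPKM at 7 d. Its log2 ratios of 0.16, 0.06 and 0.24 were under the fold at each time, and both 7 d values were below the 4 values of the earlier times.

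Igf1, the ligand (chr10:87826377-87937042), was higher past the fold at 7 d and not before. It was listed at 1.41 FPKM in saline and 1.38 FPKM in cocaine at 2 h, at 1.52 and 1.63 FPKM at 24 h, and at 1.12 and 1.38 FPKM at 7 d. The log2 ratios were -0.03, 0.09 and 0.27. The cocaine value was 1.38 FPKM at both 2 h and 7 d, and the saline value at 7 d was the lowest of the 6. At 7 d, 11.9% of all genes had a ratio at least as high as Igf1, and 18.7% of genes within 2-fold of its level did.

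The Akt kinases were the most abundant of the 9 genes and stayed within the fold throughout. Akt1 (chr12:112653821-112674884) was listed at 52.1 FPKM in saline and 57.7 FPKM in cocaine at 2 h, at 59.7 and 57.5 FPKM at 24 h, and at 48.3 and 56.5 FPKM at 7 d. Akt2 (chr7:27591552-27640826), the isoform best known for glucose uptake, was listed at 39.6 and 43.2 FPKM at 2 h, 48.5 and 47.8 FPKM at 24 h, and 44.6 and 49.1 FPKM at 7 d. The log2 ratios were 0.15, -0.05 and 0.22 for Akt1 and 0.13, -0.02 and 0.14 for Akt2. The cocaine values of Akt1 spanned 56.5 to 57.7 FPKM, a narrower range than the 48.3 to 59.7 FPKM of saline. At 7 d, 4.8% of genes of like level had a ratio at least as high as that of Akt1, although 15.8% of all genes did.

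The FOXO factors, which Akt holds out of the nucleus, had small differences in transcript level. Foxo3 (chr10:42181839-42276755) was listed at 14.0 FPKM in saline and 15.1 FPKM in cocaine at 2 h, 13.1 and 14.2 FPKM at 24 h, and 12.2 and 14.3 FPKM at 7 d. Its log2 ratios were 0.11, 0.11 and 0.22, under the fold, with all cocaine values above all saline values by a margin of 14.2 against 14.0 FPKM at the nearest. Foxo1 (chr3:52268337-52350109) was listed at 3.34 and 3.56 FPKM at 2 h, 3.16 and 3.21 FPKM at 24 h, and 3.23 and 3.57 FPKM at 7 d. Its log2 ratios were 0.09, 0.02 and 0.14, and its 6 values spanned a range of 3.16 to 3.57 FPKM. Transcript levels do not show where the FOXO proteins were in the cell.

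Ordered by the median of the 6 pooled FPKM, which are per length, the genes ran Akt1 (57.0), Akt2 (46.2), Foxo3 (14.1), Irs2 (4.98), Insr (4.09), Igf1r (3.58), Foxo1 (3.29), Igf1 (1.4) and Irs1 (0.473). The 6 values did not overlap between Akt2 and Foxo3, between Foxo1 and Igf1, or between Igf1 and Irs1. The other neighbours in the order had overlapping ranges. Foxo3 and Irs2 overlapped only through the 12.4 FPKM of Irs2 in cocaine at 2 h.

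Counted together, 3 of the 9 genes were higher past the fold at 2 h (Irs1, Irs2 and Igf1r), 1 at 24 h (Irs2) and 4 at 7 d (Irs1, Irs2, Igf1r and Igf1), and none was lower at any time. Over all genes, the background at 2 h was 13.8% higher and 12.9% lower. The 24 h table had 10.5% higher and 10.9% lower, and the 7 d table had 12.6% higher and 15.5% lower. The 24 h count of 1 in 9 is near the background. In the order of time, the median log2 ratios of the 9 genes were 0.15, 0.06 and 0.24, beside 0.02, 0.01 and -0.01 for all genes. The ratio was above 0 for 8, 6 and 9 of the 9 genes. It was above 0 at all 3 time points for 5 genes (Irs2, Insr, Igf1r, Foxo1 and Foxo3), and no gene was below 0 throughout. Of all genes, 17.1% were above 0 at all 3 times and 31.9% had the same sign at all of them. The members belong to 1 pathway and came from the same pooled libraries, so their common direction is not a set of independent observations.

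**Figure D2:**
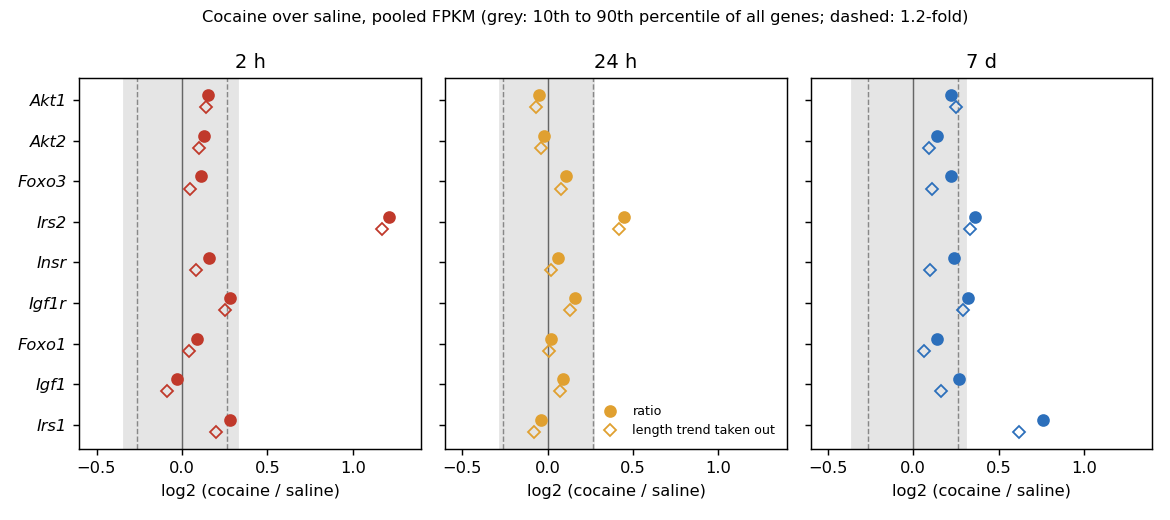
Log2 ratio of cocaine over saline (horizontal axis) for each of the 9 genes at 2 h, 24 h and 7 d; filled circles are the ratios, open diamonds the ratios after the trend over transcript length was taken out, dashed lines 1.2-fold, and the grey band the central range of all genes without their highest and lowest 10%. Irs2 lies right of the dashed line at each time (1.21, 0.45 and 0.36), and at 7 d all 9 circles are right of 0.

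The ratios at 7 d moved with transcript length. Over all genes with a known length, the Spearman correlation across genes between length and log2 ratio was 0.32 at 7 d (n = 16676), 0.13 at 2 h (n = 16541) and 0.06 at 24 h (n = 16823), given as a description since genes share their libraries. The median ratio of the shortest of 20 length bins was -0.17 and that of the longest 0.14 at 7 d, against -0.03 and 0.08 at 2 h and -0.06 and 0.03 at 24 h. Most of the 9 genes have long transcripts, from 2690 bases for Akt1 to 9355 for Insr. With the median of each length bin taken out, 3 genes were higher past the fold at 7 d (Irs1 at 0.62, Irs2 at 0.33 and Igf1r at 0.29), where 12% of all genes were, and the median of the 9 genes was 0.16. At 2 h the count went from 3 to 1, with Irs2 at 1.17, Igf1r at 0.25 and Irs1 at 0.20. At 7 d Insr went from 0.24 to 0.10, Foxo3 from 0.22 to 0.11 and Igf1 from 0.27 to 0.16, while Akt1 stood at 0.25.

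The lengths of Irs2 and Igf1r are short in the annotation that was used. Their longest transcripts, of 4024 and 4181 bases, hold 30 and 39 bases of 3′ untranslated region, whereas the other 7 genes have between 877 (Akt1) and 6347 (Igf1). With both genes placed in the bin of the longest transcripts, a choice made after the data were seen, Irs2 stood at 1.13, 0.41 and 0.22 and Igf1r at 0.20, 0.12 and 0.18 at 2 h, 24 h and 7 d. In that bin both genes were under the fold at 7 d.

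**Figure D3:**
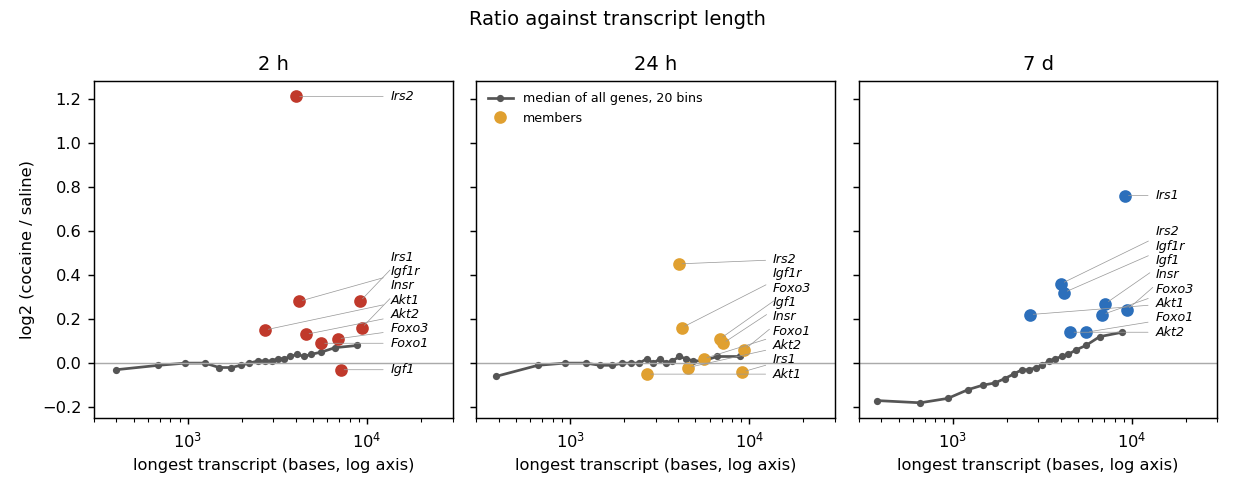
Log2 ratio of cocaine over saline (vertical axis) against the longest annotated transcript in bases (log axis) for the 9 genes (colored points) and the median of all genes in 20 length bins (grey line), at 2 h, 24 h and 7 d. The grey line runs from -0.17 to 0.14 at 7 d and is flatter at 2 h and 24 h, and Irs2 lies above it at each time.

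The saline groups themselves differed between time points. For 7 of the 9 genes the lowest saline value was at 7 d, the exceptions being Akt2 (lowest at 2 h) and Foxo1 (lowest at 24 h). Against the mean of the earlier saline values, the 7 d saline value differed by a log2 of -0.69 for Irs1, -0.48 for Insr and -0.39 for Igf1. The same difference within cocaine was 0.13 for Irs1, -0.35 for Insr and -0.13 for Igf1. Over all genes, saline at 7 d against saline at 2 h had a median log2 ratio of 0.14 in the shortest length bin and -0.18 in the longest, beside 0.01 and -0.11 for cocaine. The part of this in the 7 d ratios of the 9 genes was not tested.

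Of 83 other genes of the pathway, listed by role, 80 were measured at 2 h and 81 at 24 h and at 7 d. At 2 h, 20 were higher and 7 lower past the fold (25.0% and 8.75%), at 24 h 7 and 3 (8.64% and 3.7%), and at 7 d 11 and 2 (13.6% and 2.47%). The shares of all genes were 13.8% and 12.9% at 2 h, 10.5% and 10.9% a day after the last dose, and 12.6% and 15.5% at 7 d, so the higher shares at 24 h and 7 d were near the background. Their median log2 ratio was 0.11, 0.01 and 0.08. The subunits of phosphoinositide 3-kinase, 6 genes between the adaptors and Akt, held none past the fold at any time. Of the 7 other ligands and binding proteins, none passed it at 2 h or 24 h, and at 7 d Igf2 did, at 34.6 FPKM in saline and 43.4 in cocaine (0.33).

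The genes that restrain the pathway held the highest ratios at 2 h, with 6 of 15 higher and 2 lower. These are 40.0% and 13.3%, beside 13.8% and 12.9% of all genes, so the lower share was near the background. Trib1, a pseudokinase related to the Akt inhibitor Trib3, was listed at 2.68 FPKM in saline and 7.72 FPKM in cocaine at 2 h (1.49), and its ratio was 0.68 at 24 h and 0.51 at 7 d. Socs3 and Socs1, suppressors of cytokine signaling that also promote the breakdown of Irs proteins, were listed at 0.612 and 1.44 FPKM (1.11) and at 0.314 and 0.716 FPKM (0.98) at 2 h. Socs1 stood at 0.94 at 24 h and 0.57 at 7 d, and Socs3 at 0.29 and 0.27. These 3 genes were the members of the list that were higher past the fold at all 3 time points, as Irs2 was. Socs2 went from 4.91 FPKM in saline to 7.63 FPKM in cocaine (0.62) and Trib2 from 9.03 to 13.6 FPKM (0.59) at 2 h. At 24 h 5 of 16 measured genes of this role were higher and at 7 d 3 of 16, with none lower. The higher shares were 31.2% and 18.8%, beside 10.5% and 12.6% of all genes. Both Socs genes with values near 1 FPKM or less have ratios that depend on the added constant, as Irs1 has.

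Among targets of Akt and mTORC1, 4 of 10 were higher and 1 lower at 2 h, when 13.8% of all genes were higher and 12.9% lower. Of the same 10, 1 was higher and 1 lower at 24 h, and 1 was higher and 2 lower at 7 d. The share of 10.0% lower at 2 h was near the background, as were both shares at 24 h. Both counts at 7 d were near it too, with 12.6% of all genes higher and 15.5% lower. Foxo6, a FOXO factor of the brain, was listed at 2.89 and 4.87 FPKM at 2 h (0.73) and at 2.3 and 3.49 FPKM at 24 h (0.58). Of 14 genes known as FOXO targets, 5 were higher and 1 lower at 2 h, none higher and 2 lower at 24 h, and 2 higher and none lower at 7 d. The 2 of 14 lower at 24 h and the 2 of 14 higher at 7 d are each 14.3%, near the 10.9% and 12.6% of all genes. Counts of so few genes per role are descriptions. Bcl6, a transcriptional repressor, was listed at 3.59 and 5.96 FPKM at 2 h (0.72). Slc2a4, the insulin-responsive glucose carrier, was listed at 0.348 and 0.64 FPKM at 7 d (0.72). Shc3, a neuronal adaptor, was listed at 15.9 and 21.4 FPKM at 7 d (0.43). Insrr, the insulin receptor-related receptor, was listed at 0.262 and 0.129 FPKM at 2 h (-0.66) and at 0.118 and 0.284 FPKM at 24 h (0.81), the lowest levels of the pathway genes named here.

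**Figure D4:**
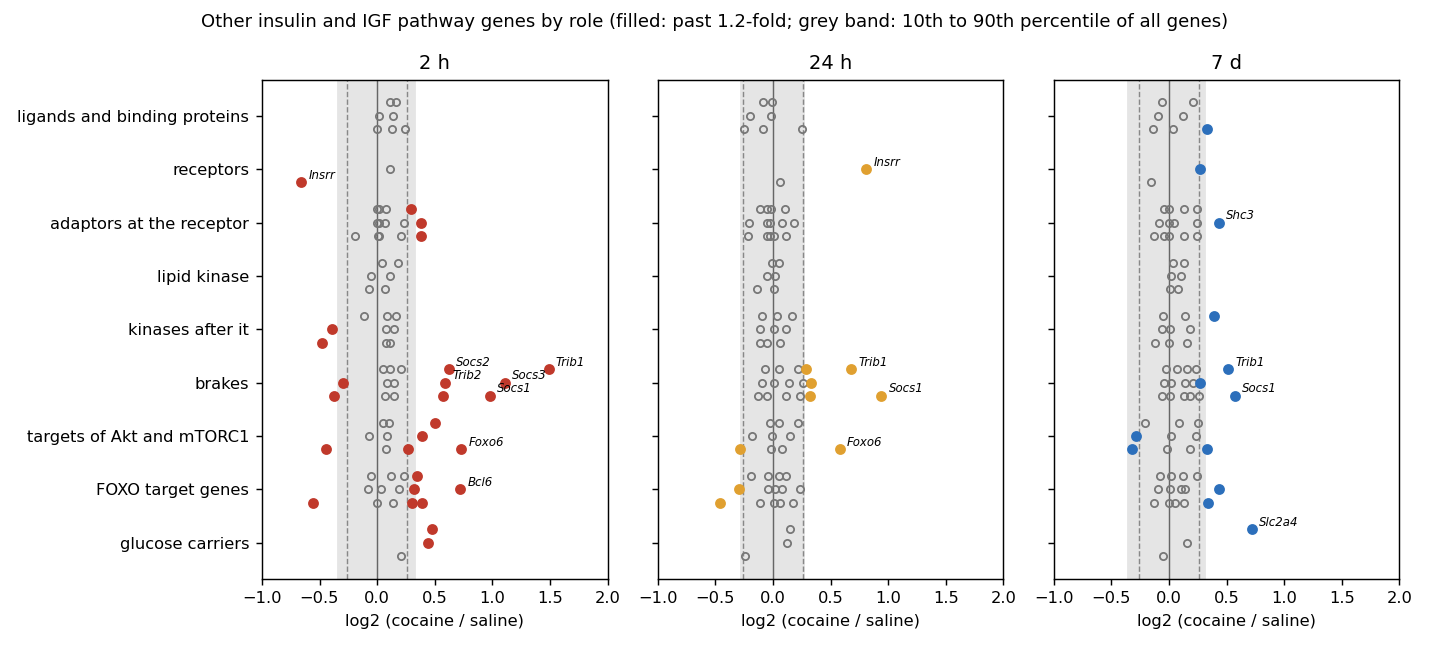
Log2 ratio of cocaine over saline (horizontal axis) of the other pathway genes by role at 2 h, 24 h and 7 d; filled points are past 1.2-fold (dashed lines), the grey band is the central range of all genes without their highest and lowest 10%, and the height within a role has no meaning. The brakes Trib1, Socs3 and Socs1 lie farthest right at 2 h (1.49, 1.11 and 0.98), and no lipid kinase subunit is filled at any time.

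The pattern of Irs2 over the 6 pooled values was compared with that of 12612 genes. The highest Pearson correlations of log2 FPKM were those of Sh3bp4 (0.998), Luzp1 (0.997), Hinfp (0.994), Slc25a44 (0.993) and Pofut2 (0.993), and 208 genes reached 0.95. Sh3bp4 was listed at 3.67 and 5.18 FPKM (saline, cocaine) at 2 h, 3.47 and 4.03 FPKM at 24 h, and 3.16 and 3.44 FPKM at 7 d. The correlation compares the shape of the pattern and not its size. At 2 h Hinfp was listed at 1.69 and 1.86 FPKM and Slc25a44 at 22.4 and 26.9 FPKM, against 5.3 and 12.4 FPKM for Irs2. Among the members, the correlation with Irs2 was 0.86 for Igf1r, 0.83 for Foxo3, 0.80 for Insr, 0.52 for Foxo1, 0.48 for Akt1, 0.33 for Igf1 and -0.25 for Akt2. Irs1 was below the level the search required. With 6 values from 3 tables, these are descriptions and carry no p.

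The labelled tissue held its markers: all 7 markers of cortical excitatory neurons were measured, with Slc17a7 between 466 and 532 FPKM. Their summed level was 1501 FPKM in saline and 1619 FPKM in cocaine at 2 h, 1666 and 1604 FPKM a day after the last dose, and 1403 and 1568 FPKM at 7 d. Most of that sum is Camk2a (844 and 999 FPKM at 7 d) and Slc17a7. None of the 7 passed the fold at 2 h or 24 h, while at 7 d Cux2 was higher (0.30) and Neurod6 (-0.41) and Fezf2 (-0.39) were lower. Blood genes were higher in cocaine at 2 h, with a sum of 323 FPKM in saline and 504 FPKM in cocaine and 5 of 5 past the fold. Their sums were 458 and 504 FPKM at 24 h and 452 and 529 FPKM at 7 d. Markers of smooth muscle and pericytes summed to 19.5 and 24.4 FPKM at 7 d with 4 of 5 past the fold, and 3 of 5 meningeal fibroblast markers were past it, with sums of 21.3 and 23.7 FPKM. Choroid plexus markers summed to 3.36 and 9.53 FPKM at 7 d, through Ttr at 0.284 and 6.54 FPKM. Astrocyte markers summed to 313 and 351 FPKM at 7 d with 2 of 5 higher, and to 367 and 327 FPKM at 24 h with 2 of 5 lower. Sums of oligodendrocyte markers were 716 and 595 FPKM at 24 h. Sums of the markers of GABA neurons, microglia, endothelial cells and striatal neurons had log2 ratios between -0.13 and 0.19. Of all genes, 13.8%, 10.5% and 12.6% were higher past the fold at 2 h, 24 h and 7 d, and 12.9%, 10.9% and 15.5% lower. The part of the cell types named here in the ratios of the 9 genes was not tested.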

How the data were processed

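RNA-seq of the PFC was available as 3 tables, 1 per time point. After trimming and alignment (TopHat2, unique alignments only), the authors deposited 1 FPKM per locus and group, pooled over 2 libraries and normalized within each table by Cuffdiff. The submitters' processing notes name CASAVA 1.8.2, Trimmomatic 0.32, TopHat2 2.0.12, Cufflinks 2.2.1 and GRCm38, which the loci match, while the study's methods name mm9, cutadapt and an earlier Cufflinks. The deposited columns of log2 fold change, test statistic, p value, q value and significance hold the authors' own comparison and were not used. The first value column was taken as saline and the second as cocaine from the sample names in each table. Depth per library cannot be read from FPKM, and the study gives reads only as a range over all replicates, so counting error was not calculated.

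Loci without an estimate (175, 169 and 204 at 2 h, 24 h and 7 d) were left out, a gene name on several loci took the longest, and genes with a mean of at least 0.1 FPKM were kept. Log2 ratios used 0.1 FPKM as pseudocount, which understates the difference of low genes. Length was the longest Gencode vM1 transcript of the symbol (94.2%, 93.8% and 93.8% of genes), in 20 bins. Promoter windows came from RefSeq (GRCm38.p6). Antisense overlap was measured on NCBIM37 and its coordinates were not mixed with those of the tables. Alternatives were another pseudocount, filter, fold, locus choice and centring. Python 3.11.15, numpy 2.4.6, pandas 2.3.3 and matplotlib 3.10.9 were used. The steps up to the length-corrected ratios were tested on simulated data with 200 planted changes, in genes with a mean of at least 1 FPKM. Recovery was checked for the planted increases only, and not for the planted decreases or for false calls among unchanged genes. The planted changes were larger than 1.2-fold, so the simulation did not cover calls near the fold. It did not cover levels as low as that of Irs1 either. The other steps were not simulated.

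The members and gene lists were chosen with earlier results of these data known. Named genes were all 9 members and the pathway genes past 1.5-fold at a time point. Where fewer than 4 passed, the 4 with the largest ratio past 1.2-fold were named. The 5 genes most like the member with the largest ratio at 2 h were named too, over genes with a mean of at least 1 FPKM. Igf2, Rhbdd1, the antisense genes and later ratios of named genes were added after their values were seen. Cell type marker lists were those of cortical excitatory and GABA neurons, oligodendrocytes, astrocytes, microglia, endothelial cells, smooth muscle and pericytes, meningeal fibroblasts, choroid plexus, striatal neurons and blood.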

Additional observations from a re-analysis of the deposited data

Results flagged for a closer look

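Insrr and Pdk4, both from the list of other pathway genes, were past 1.2-fold in opposite directions at 2 h and 24 h. Insrr, the insulin receptor-related receptor, had a log2 ratio of cocaine over saline of -0.66 at 2 h and 0.81 at 24 h, with all 6 pooled values between 0.089 and 0.284 FPKM. Pdk4, a kinase that inhibits pyruvate dehydrogenase, had a log2 ratio of 0.30 at 2 h (3.6 FPKM in saline, 4.45 in cocaine) and -0.46 at 24 h (5.02 and 3.62 FPKM). With 1 pooled value per group, the difference between the time points was not tested for either gene. None of the 9 members was past the fold in opposite directions.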

How the results depend on the processing

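No paired analysis was possible because each deposited value stands for a whole group and carries no replicate number, and for the same reason no replicate could be left out. Of 92 alternative values of counts and medians, 76 stayed within the set limits, 16 moved and 0 changed sign. The limits were 1.5 times for a count and 0.1 for a median log2 ratio. Of 222 alternative values of single members, 203 stayed, 19 moved and 1 changed sign. That was Irs1 at 24 h, from -0.04 to 0.19 when its FPKM was added to that of Gm9747. Each member had 1 locus, so the alternative locus choices could not change its ratio. The alternative filters could drop a member but could not change its ratio either. Many of the values that stayed were therefore fixed in advance, and their number does not measure robustness. The number of members past the fold, 3 at 2 h, 1 at 24 h and 4 at 7 d, was 5, 2 and 8 with a fold of 1.1, and 1, 0 and 1 with a fold of 1.5. All of these members were higher and none lower. Of all genes, 26.5%, 20.8% and 25.2% were higher past 1.1-fold, and 4.2%, 3.69% and 3.39% past 1.5-fold. The 2 of 9 members at 24 h with a fold of 1.1 were near that share. With a pseudocount of 1 FPKM the members past the fold were 1 at 2 h and 2 at 7 d, beside 7.17% and 4.99% of all genes. With the length trend taken out it was 1 at 2 h, near the 11.9% of all genes. The pathway genes past the fold in either direction, 27, 10 and 13, numbered 42, 29 and 33 with a fold of 1.1 and 8, 3 and 1 with a fold of 1.5, and 6 at 24 h with a pseudocount of 1 FPKM. With a fold of 1.1, 34 pathway genes were higher and 8 lower of 80 at 2 h. The counts were 18 and 11 of 81 at 24 h, and 29 and 4 of 81 at 7 d. With the pseudocount of 1 FPKM, 5 of 81 were higher and 1 lower at 24 h, beside 4.32% of all genes higher. The higher counts at 24 h were near the shares of all genes. The shares of all genes that were lower were not calculated at these settings. Igf1 at 7 d stood at 0.16 with a pseudocount of 1 FPKM. Irs2 at 2 h stood at 1.09 with it and stayed past 1.5-fold. Summing Irs1 with Gm9747 and moving Irs2 and Igf1r to the longest length bin were chosen after seeing the data. Since the pooled FPKM carry neither depth nor replicate values and the authors' test columns were not used, no ratio was set here against replicate or counting error.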
